A study of Mus musculus with 6 samples.

Results

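The circRNAs described here come from 6 genes of cell metabolism, namely Acss3, Gbe1, Mlxipl, Selenbp1, Slc1a5 and Slc7a11. A circRNA is an RNA whose exons are closed into a ring by a back-splice, in which the last base of an exon is joined to the first base of an exon that lies upstream, or of itself. The rule named 7 circles by their genome coordinates or circBase identifier and added every circle on the same strand that overlaps them, which gave 3 more. These 10 members are part of 3662 circRNAs in the deposited table. The 7 named circles were chosen by their levels on the 3 days of differentiation, which were already known. The 3 others were added by overlap alone. The levels of all 10 are therefore given as a description. Calls of the edgeR fit for them are printed only beside the share of all circRNAs called. The values that chose the 7 are the reads of the same 6 libraries.

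Primary cells were taken from the inguinal fat pad of female C57BL/6J mice aged 6 weeks. They are stromal vascular fraction (SVF) cells, the mixed cells that remain when a fat pad is digested and its floating adipocytes are removed, and preadipocytes are among them. The D0 libraries hold cells grown to near confluence before induction, in medium with 20% serum by the sample labels, where the methods give a lower share. The later media held 10% serum, so serum differs between D0 and the later stages together with the hormones. The D4 libraries hold cells after 4 days in an induction cocktail with dexamethasone at 0.3 mM, 3-isobutyl-methylxanthine at 0.63 mM and insulin at 2.85 mM. These concentrations are as the sources print them and could not be checked. The D8 libraries hold cells after that cocktail and 4 further days with 200 nM insulin and 10 nM triiodothyronine (T3). There were 2 libraries a stage. No genotype or transgene distinguishes the stages, and the study calls the libraries of a stage biological replicates, without saying whether they came from separate mice or cultures. Each SD measures the spread between these 2 libraries. The RNA had been depleted of rRNA and digested with RNase R, an enzyme that degrades linear RNA, so the mRNA of the same genes was not measured in these counts.

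Each value is a count of reads across a back-splice. The libraries held 30110 and 32310 such reads at D0, 43069 and 41658 at D4, and 45371 and 50672 at D8. Levels are given as circCPM, the reads of a circle per 1000000 circRNA reads of its library, so that 1 read is worth between 19.7 circCPM in D8 replicate 2 and 33.2 circCPM in D0 replicate 1. The lowest value above 0 in the table is 2, so a circle listed at 0 can have had a single read. Where both libraries of a stage stand at 0, a fold is given as a lower bound against a floor of 3 counts per library. Reads carry no molecular identifiers, and intervals and floors cover counting error only. As these are bulk samples, fewer cells of a type and less RNA per cell cannot be told apart.

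White adipocytes take up glucose and amino acids, store energy as triglyceride and, in smaller amount, as glycogen, and burn branched-chain amino acids and short fatty acids in their mitochondria. Mlxipl encodes ChREBP, a transcription factor that glucose metabolites activate and that switches on genes of glycolysis and fatty acid synthesis. Gbe1 is the glycogen branching enzyme. Acss3 is a mitochondrial acyl-CoA synthetase that acts on short-chain fatty acids such as propionate, and Selenbp1 is a selenium-binding protein with methanethiol oxidase activity. Slc1a5 carries glutamine and other neutral amino acids into the cell, and Slc7a11 is the cystine/glutamate exchanger that supplies cysteine for glutathione.

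The back-splice is the only stretch that tells a circle from the mRNA of its gene, so the 20 bases before the joint (lower case) and the 20 bases after it (capitals) are shown for the 10 circles, 5′ to 3′ on the strand of the gene, as read from the mm9 genome. The 4 Acss3 circles combine 2 different starts with 2 different ends, which can be seen in the shared left and right parts of their joints.
Acss3 exons 3 to 5: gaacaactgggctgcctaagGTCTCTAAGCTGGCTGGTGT
Acss3 exons 3 to 7: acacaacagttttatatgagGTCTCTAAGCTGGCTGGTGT
Acss3 exons 2 to 5: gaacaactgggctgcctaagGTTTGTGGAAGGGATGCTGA
Acss3 exons 2 to 7: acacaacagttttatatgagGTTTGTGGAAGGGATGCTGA
Mlxipl exons 3 to 7: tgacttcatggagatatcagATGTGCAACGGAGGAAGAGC
Mlxipl exons 6 to 7: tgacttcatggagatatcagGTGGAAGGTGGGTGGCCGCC
Gbe1 exons 4 to 7: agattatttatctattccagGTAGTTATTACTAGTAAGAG
Selenbp1 exons 6 to 7: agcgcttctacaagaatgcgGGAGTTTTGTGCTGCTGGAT
Slc1a5 exons 2 to 4: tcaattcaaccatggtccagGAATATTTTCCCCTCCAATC
Slc7a11 exons 2 to 6: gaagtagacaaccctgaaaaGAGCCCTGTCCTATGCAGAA

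Positions are those of mm9, counted from base 1, and exon numbers are those of the GENCODE transcript with both ends of the circle. The Acss3 circles lie on the minus strand of chromosome 10, and all start at exon 2 or 3 and end at exon 5 or 7 of a transcript of 11 exons. Exons 3 to 5 span chr10:106482269-106490572 and exons 3 to 7 span chr10:106460710-106490572. The circles from exon 2 reach to 106522007 and end at the same bases, 106482269 for exon 5 and 106460710 for exon 7. The Mlxipl circles lie on the plus strand of chromosome 5, at chr5:135597376-135599887 for exons 3 to 7 and chr5:135599520-135599887 for exons 6 to 7, of 17 exons. The Gbe1 circle is made of exons 4 to 7 of 14 on the plus strand, at chr16:70433790-70441564. The Selenbp1 circle holds exons 6 to 7 of 12 on the plus strand, at chr3:94743568-94744148, and the Slc1a5 circle holds exons 2 to 4 of 12 on the plus strand, at chr7:17371025-17372261. The Slc7a11 circle holds exons 2 to 6 of 12 on the minus strand, at chr3:50221910-50242837.

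All 10 circles had both ends at annotated exon ends, as did 3338 of all circRNAs (91.2%), and each was flanked by the splice signals AG and GT. All 10 were made of coding exons only, with no UTR base, against 79.4% of the 3338. In circBase, a catalogue of circRNAs, the Gbe1 circle is mmu_circ_0006376 and the Slc7a11 circle is mmu_circ_0010676. The other 8 (80% of the members) carried no circBase identifier in the table, against 35.6% of all circRNAs, and the Acss3 circles, which share ends, make up 4 of the 8.

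Spliced lengths, taken as the sum of the annotated exons between the ends, ran from 130 to 787 bases, with a median of 508 against 444 for all circles with annotated ends. The Slc1a5 circle was the shortest at 130 bases in 3 exons, and 0.509% of all such circles were shorter. The longest was the Acss3 circle of exons 2 to 7 at 787 bases in 6 exons. The reading frame of the gene runs around 3 of the 10 circles without meeting a stop codon in 3 turns, which are the Acss3 circles of exons 3 to 5 (465 bases) and 3 to 7 (642 bases) and the Mlxipl circle of exons 3 to 7 (501 bases). The share of wholly coding circles with such a frame was 37.5% over the table. This is a property of the sequence, and translation was not measured.

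The introns next to the circles differed widely between the genes, as the plot of intron lengths shows. The Acss3 circle of exons 3 to 5 has 31290 bases of intron before it and 21275 bases after it, longer than 82.1% and 78.2% of the introns at these places in all circles. The Gbe1 circle has 31695 and 36986 bases. By contrast, the Selenbp1 circle has 1570 and 2237 bases, with 10.1% and 17.1% of circles having shorter introns, and the Slc1a5 circle has 3200 and 2864 bases. The Slc7a11 circle lies between a short intron of 4069 bases and a long one of 33820 bases. Short inverted repeats between the flanking introns can bring the splice sites of a circle together, and the longest exact inverted repeat within 5000 bases on each side was 28 bases for the Acss3 circle of exons 3 to 5, 24 for Slc1a5, 23 for Selenbp1, 22 for the Mlxipl circle of exons 3 to 7 and 15 to 17 for the other 6. The median over all circles was 15 bases.

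**Figure D1:**
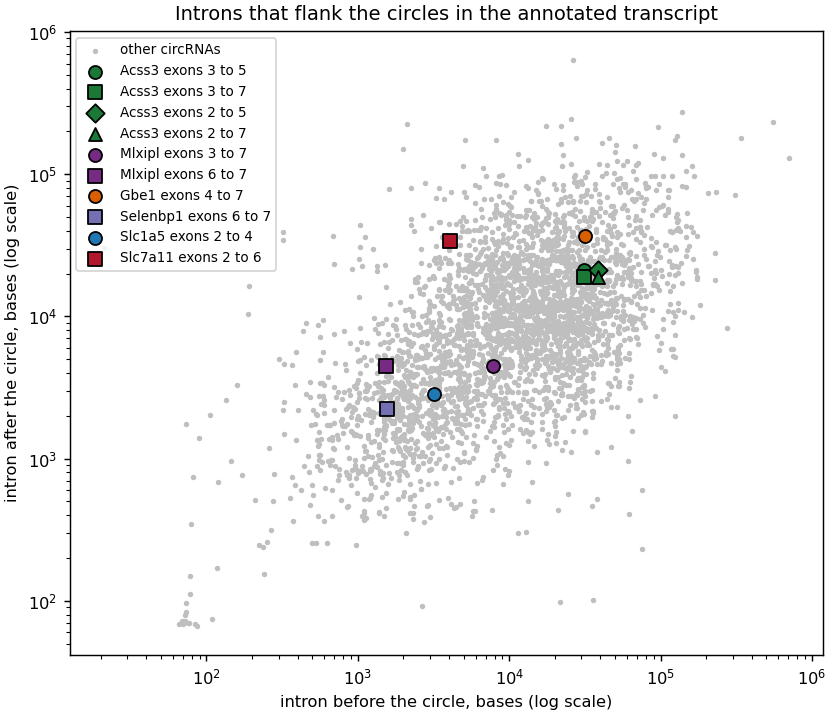
Length in bases of the intron before (horizontal, log scale) and after (vertical, log scale) each circle with annotated ends. Coloured symbols are the 10 members and grey points are the other circRNAs. The Acss3 and Gbe1 circles lie among the long introns, and the Selenbp1 and Slc1a5 circles among the short ones.

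The transcription factor gene Mlxipl gave 2 circles that end at the same base. The circle of exons 3 to 7 was listed at 0 in both D0 libraries, had 10 and 7 reads at D4 and 43 and 65 reads at D8. Its level was 200 ± 45.4 circCPM at D4 and 1115 ± 237 at D8 (SD, n = 2). The 2 stages did not overlap, and the D8 level was 5.57 times the D4 level and at least 11.6-fold higher than the D0 floor. The shorter circle, of exons 6 to 7, was listed at 0 in all 4 libraries of D0 and D4 and had 10 and 6 reads at D8. It made up 18.9% of the Mlxipl circle reads in D8 replicate 1 (95% Wilson interval 10.6 to 31.4%) and 8.45% in D8 replicate 2 (3.93 to 17.2%). With 10 and 7 Mlxipl reads in the D4 libraries, a share of up to 27.8% and 35.4% there would lie within the intervals, so a later appearance of the shorter circle was not detectable at this depth.

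Among the enzymes, Acss3 had the most circles. Its circle of exons 3 to 5 was listed at 0 in both D0 libraries, had 64 and 61 reads at D4 and 99 and 95 reads at D8. Both D4 libraries were already close to the D8 libraries, with 1475 ± 15.3 circCPM at D4 and 2028 ± 217 at D8 (SD, n = 2), so that the D4 level was 72.7% of the D8 level. The D4 level was at least 15.3-fold and the D8 level at least 21.1-fold higher than the D0 floor. That of exons 3 to 7 also stood at 0 at D0 and had 45 and 21 reads at D4 and 60 and 60 at D8. Its replicates differed more at D4, with 1045 and 504 circCPM, than at D8, with 1322 and 1184 circCPM.

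The Acss3 circles from exon 2 were lower. That of exons 2 to 5 had 0 reads in both D0 libraries, 5 and 12 at D4 and 17 and 25 at D8, a level of 202 ± 122 and 434 ± 83.9 circCPM on the latter 2 stages (SD, n = 2). That of exons 2 to 7 had 0 reads at D0, 0 and 5 at D4 and 18 and 15 at D8. It was thus listed in a single library of D4, and its mean of 60.0 circCPM there lies under the floor of 3 counts. None of the 4 Acss3 circles had a read listed at D0, while at D8 they had 194 and 195 reads together in the 2 libraries.

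The share of each Acss3 circle among the reads of all 4 is shown by library in the plot of isoform shares. Exons 3 to 5 held 56.1% of these reads in D4 replicate 1 (95% Wilson interval 47.0 to 64.9%), 61.6% in D4 replicate 2 (51.8 to 70.6%), 51.0% in D8 replicate 1 (44.0 to 58.0%) and 48.7% in D8 replicate 2 (41.8 to 55.7%). Both D8 shares lay under both D4 shares, by 9.0 percentage points on average (58.9 ± 3.87% at D4, 49.9 ± 1.64% at D8, SD, n = 2), and the intervals overlapped. An exact two-sided permutation test of 2 libraries against 2 cannot give a p below 0.333, so the shares are given as values only. Among the reads of the 2 circles from exon 3 alone, the shares of the stages overlapped, with 58.7% and 74.4% at D4 and 62.3% and 61.3% at D8.

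The start at exon 3 was used in most reads of every library, with shares of 95.6% and 82.8% at D4 and 82.0% and 79.5% at D8. The end at exon 5 held 60.5% and 73.7% at D4 and 59.8% and 61.5% at D8. On D8, exon 5 closed 62.3% and 61.3% of the reads that start at exon 3, and 48.6% and 62.5% of those that start at exon 2. In D4 replicate 1, none of the 114 Acss3 reads came from the circle of exons 2 to 7, which allows a share of up to 3.26% by the Wilson interval.

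**Figure D2:**
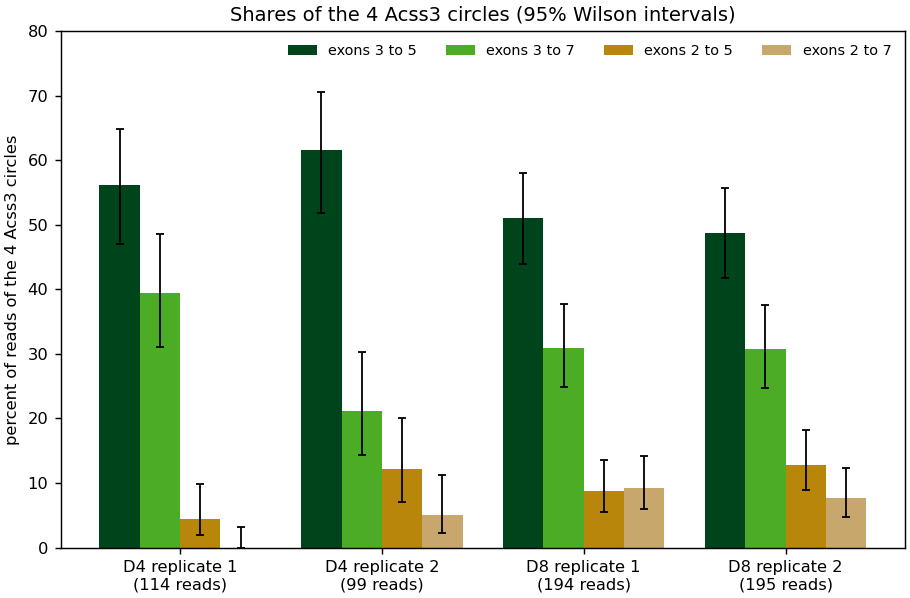
Percent of the reads of the 4 Acss3 circles that each circle held in the D4 and D8 libraries, with 95% Wilson intervals as bars. The D0 libraries had no Acss3 read listed. The circle of exons 3 to 5 is the largest in each library, from 48.7% to 61.6%, and the circles from exon 2 are the smallest.

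Acss3 had 2 more circles outside these spans, the only other circles of the 6 genes in the table. Numbered on a longer transcript of 16 exons, that of exons 9 to 13 (chr10:106385712-106425965) had 0 reads at D0, 3 and 0 at D4 and 2 and 6 at D8. That of exons 9 to 11 (chr10:106400018-106425965) had 0 reads at D0 and D4 and 3 and 2 at D8. Both were too low for the filter of the test, so 0 of 2 were tested, and neither passed the threshold when the filter was left out.

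Gbe1 gave a single circle, which was the most abundant member at D8. It had 25 and 19 reads at D0, 48 and 53 at D4 and 168 and 139 at D8. Its level was 709 ± 171 circCPM at D0, 1193 ± 112 at D4 and 3223 ± 679 at D8 (SD, n = 2), and no library of a stage overlapped with those of another. The D4 level was 1.68 times the D0 level, and the D8 level was 2.70 times the D4 level. By rank among all circRNAs it moved from places 229 and 343 in the D0 libraries to 161 and 140 at D4 and 25 and 42 at D8.

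The study designed a pair of divergent primers for the Gbe1 circle, which point away from each other on the mRNA and toward each other across the back-splice. They are shown because the stretch they enclose holds the joint given above.
First Gbe1 primer: ccgagggacccatgatcttt
Second Gbe1 primer: ggagcccagtgtatccaatc

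The first primer matched bases 516 to 535 of the circle of 563 bases, counted from the first base of exon 4, and the second matched bases 91 to 110 on the opposite strand. The product they enclose is 158 bases and runs across the joint of exon 7 to exon 4. This product was computed from the sequence. The study reports amplifying most of the circRNAs it chose for such primers, with sequencing of joints and qPCR. Its result for the Gbe1 circle was not examined here.

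The Selenbp1 circle had 0 and 4 reads at D0, 20 and 12 at D4 and 116 and 84 at D8. Its level was 61.9 ± 87.5, 376 ± 125 and 2107 ± 636 circCPM on the 3 stages (SD, n = 2), with no overlap between them. Most of its gain lay between D4 and D8, where the D8 level was 5.60 times the D4 level, and the D4 level was 17.9% of the D8 level. On D0 the replicates stood on either side of the floor of 3 counts, so a fold against D0 rests on 4 reads.

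Of the amino acid carriers, the Slc1a5 circle was highest at D8 and the Slc7a11 circle was highest at D0. The Slc1a5 circle had 5 and 6 reads at D0, 19 and 25 at D4 and 54 and 76 at D8. Its level was 176 ± 13.9, 521 ± 112 and 1345 ± 219 circCPM (SD, n = 2), a step of 2.96-fold to D4 and of 2.58-fold from D4 to D8. The stages did not overlap, and the spread between replicates was smaller than each step.

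The Slc7a11 circle had 28 and 33 reads at D0, 6 and 13 at D4 and none listed in either D8 library. Its level was 976 ± 64.7 circCPM at D0 and 226 ± 122 at D4 (SD, n = 2), so that D0 was 4.32 times D4. This fold depends on the D4 library used, as the replicates stood at 139 and 312 circCPM. Against the floor of the D8 libraries, the D0 level was at least 15.6-fold higher. It was the only 1 of the 10 that was lower at D8 than at D0, and at D0 it ranked at places 194 and 157 of all circRNAs.

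**Figure D3:**
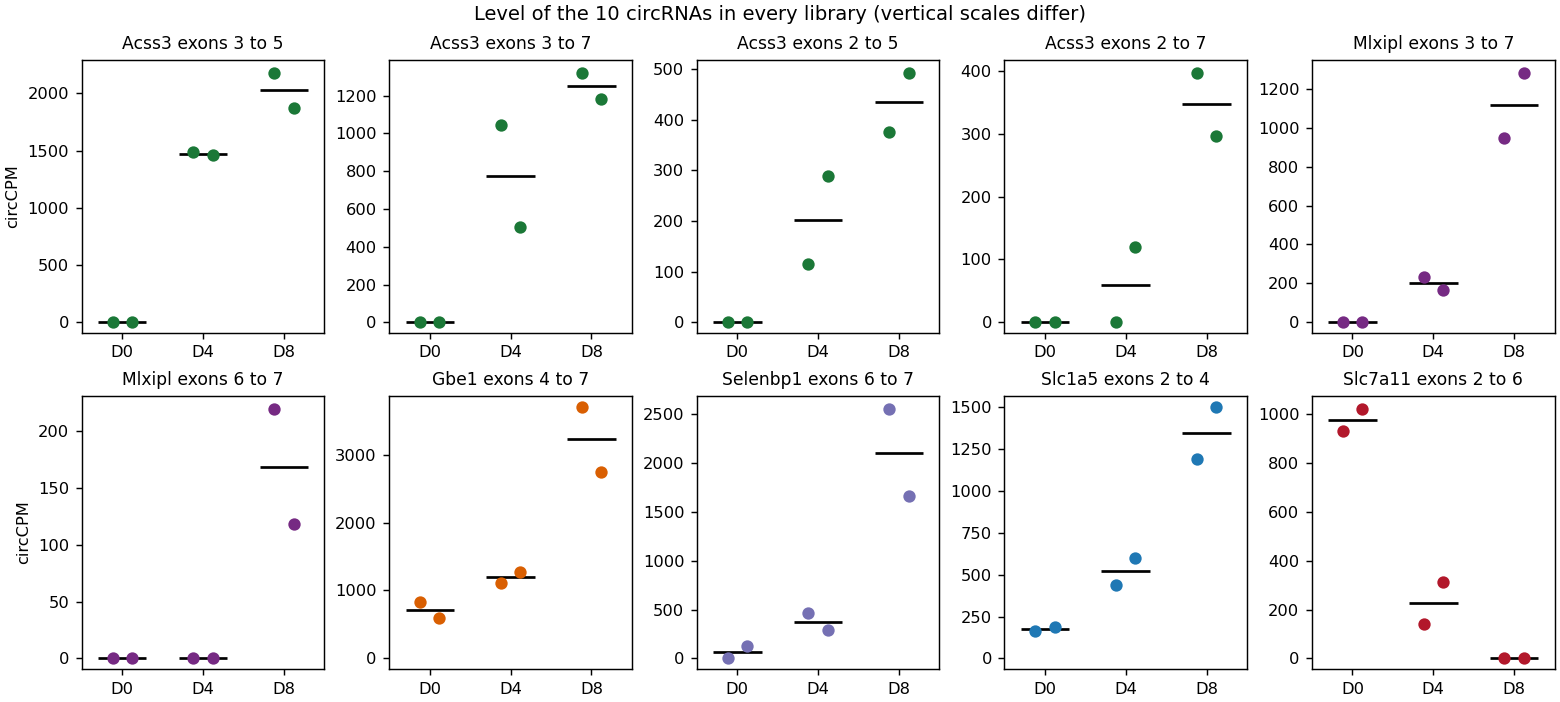
Level of each of the 10 members in circCPM (vertical axis, with its own scale in each panel) at D0, D4 and D8. Points are single libraries and lines are the means of 2. The 4 Acss3 and 2 Mlxipl circles are listed at 0 at D0, the Gbe1, Selenbp1 and Slc1a5 circles have their highest values at D8, and the Slc7a11 circle falls from 930 and 1021 circCPM to 0.

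The 10 circles together held 58 and 62 reads at D0 (0.193% and 0.192% of all circRNA reads), 217 and 209 at D4 (0.504% and 0.502%) and 585 and 565 at D8 (1.29% and 1.12%). The sum thus stepped up at each stage, and no stage overlapped with another. In the edgeR fit, 9 of the 10 passed the filter on low counts, and the Mlxipl circle of exons 6 to 7 did not. The Acss3 circles and the longer Mlxipl circle, at 0 at D0, passed it only through later stages where they are high, and so did the Selenbp1 and Slc1a5 circles, which had few reads at D0. The Slc7a11 circle passed only through the earlier stages.

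Across the 3 stages, 5 of the 9 were called at an adjusted p under 0.05, against 1.14% of all 1407 circRNAs tested. These were the Slc7a11 circle, the Mlxipl circle of exons 3 to 7, the Gbe1 circle and the Acss3 circles of exons 3 to 5 and 3 to 7. Between D0 and D8, 6 of the 9 were called higher at D8, against 1.21% of all tested, and 1 was called lower, against 0.284%. The 2 further calls in this contrast were the Selenbp1 and Slc1a5 circles. Of the members, 7 had D0 below D4 below D8 with no overlap between stages, against 2.08% of all circRNAs. All calls were of the 7 circles named by the rule. The 2 tested members added by overlap, the Acss3 circles from exon 2, were called in none of these comparisons. Since the 7 were chosen on these differences and the others overlap them, nothing is read from these counts. Leaving out D4 replicate 2 reduced the members called across the stages to 1, and leaving out D4 replicate 1 to 3.

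How much of the gain fell between D4 and D8 differed among the members, as the plot of changes between these stages shows. The log2 fold change of D8 against D4 in the edgeR fit was 0.46 ± 0.33 (SE) for the Acss3 circle of exons 3 to 5 and 0.69 ± 0.51 for that of exons 3 to 7. It was 1.37 ± 0.42 for Slc1a5 and 1.44 ± 0.32 for Gbe1. It was 2.46 ± 0.55 for the Mlxipl circle of exons 3 to 7 and 2.48 ± 0.65 for Selenbp1. The lower Acss3 circles had 1.10 ± 0.84 for exons 2 to 5 and 2.49 ± 1.52 for exons 2 to 7, and their errors span the values of most other members. For 3 Acss3 circles the value depended on the D4 library used. Without D4 replicate 1 it was 1.37 for exons 3 to 7, 0.64 for exons 2 to 5 and 1.56 for exons 2 to 7. Without D4 replicate 2 it was 0.25, 1.87 and 6.86 in the same order, the last against a lone library at 0.

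**Figure D4:**
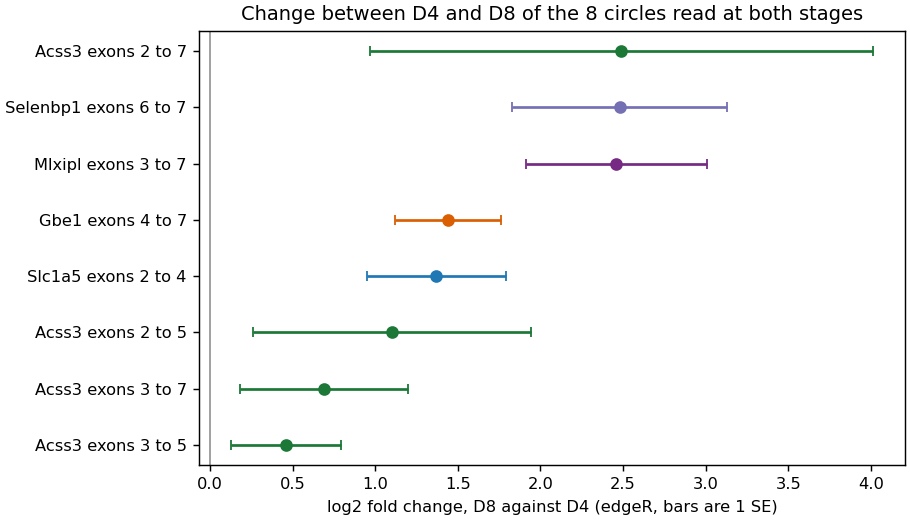
Log2 fold change of D8 against D4 from the edgeR fit for the 8 members with reads at both stages, with bars of 1 SE. The Acss3 circles from exon 3 have the smallest values, 0.46 and 0.69, and the Mlxipl and Selenbp1 circles lie near 2.5.

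Circles of cell type markers are given beside these levels, and none of them was called across the stages by edgeR, with 0 of 4 tested adipocyte, 0 of 2 preadipocyte and fibroblast and 0 of 2 cell cycle circles. At an unadjusted p under 0.05 these were 3, 0 and 2, where the share over all 1407 tested was 21%. DESeq2 called 0 of these 8 circles. Of 19 adipocyte markers, 8 had circles in the table (25 circles), and their summed level was 2524 and 2136 circCPM at D0, 3320 and 3817 at D4 and 8640 and 8249 at D8. The circle of Insr exon 2 alone held 2059 and 1362 circCPM of this sum at D0 and 4364 and 3454 at D8. Adipoq, Plin1, Fabp4 and Cebpa had none, and the presence of adipocytes was not checked on their mRNA. Of 18 preadipocyte and fibroblast markers, 2 had circles (3 circles), with a summed level of 598 and 959 circCPM at D0, 325 and 192 at D4 and 287 and 434 at D8. The 2 tested ones, of Pdgfra exons 2 to 3 and Fbn1 exons 2 to 5, were lower at D8 than at D0. That of Fbn1 exons 47 to 48 went the other way, with 4 and 0 reads at D0, 0 and 0 at D4 and 9 and 8 at D8. For 34 cell cycle genes, of which 3 had circles, the sum was 2358 and 3405 circCPM at D0, 1323 and 1368 at D4 and 132 and 513 at D8. The endothelial and pericyte lists had no circle, and the immune list had 1, of Emr1, with 10 and 4 reads at D8 and 0 elsewhere. The part of these cell types in the members' levels was not tested.

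Circles of other genes of the same pathways were tested with the same fit. Of 159 genes in 5 lists, 28 had circles in the table (50 circles), and 21 of these passed the filter. None was called across the stages by edgeR at an adjusted p under 0.05. An unadjusted p under 0.05 was found for 4 of the 21, against 21% of all 1407 tested, and DESeq2 called 2 of the 21, against 5.9% of the same 1407. The median log2 fold change of D8 against D0 was 0.68 over the 21 circles (0.62 with circles at 0 at D0 set at their lower bound), against 0.05 over all 1407, and 12 of the 21 were higher at D8, against 51.6% of all tested. Neither the 4 nor the 12 stands apart from that background. Of the 12, 2 were listed at 0 in both D0 libraries. They passed the filter only through later stages and could only count as higher.

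The glycogen list, around Gbe1, had 10 circles of 5 genes, of which edgeR called 0 of 5 tested, DESeq2 called 1, and 4 were higher at D8 than at D0. Of these 4, 1 was listed at 0 in both D0 libraries. It passed the filter only through later stages and could only count as higher. The most abundant circles of the list were of Phkb, a subunit of phosphorylase kinase, which starts glycogen breakdown. The Phkb circle of exons 3 to 8 had 18 and 18 reads at D0, 112 and 90 at D4 and 74 and 58 at D8, with its highest level at D4, where the Gbe1 circle was highest at D8. Its log2 fold change of D8 against D0 was 1.36 ± 0.35 (SE), and its adjusted p across the stages was 0.054 in edgeR and 0.0149 in DESeq2. That of exons 3 to 5 had 12 and 14 reads at D0, 65 and 34 at D4 and 26 and 58 at D8 (edgeR, adjusted p = 0.241).

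In the acyl-CoA list, around Acss3, edgeR called 0 of 2 tested circles and DESeq2 called 1. The circle of Hibadh, a mitochondrial enzyme of valine breakdown, had 14 and 23 reads at D0, 98 and 81 at D4 and 54 and 63 at D8 (edgeR, adjusted p = 0.0577, and DESeq2, 0.0382). The Pcca circle of exons 17 to 19, from a subunit of propionyl-CoA carboxylase, had 12 and 4 reads at D0, 37 and 35 at D4 and 12 and 32 at D8 (edgeR, adjusted p = 0.298). Both had their highest mean at D4, where the Acss3 circle of exons 3 to 5 stood at 72.7% of its D8 level.

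In the list of ChREBP partners and lipid synthesis, edgeR and DESeq2 each called 0 of 3 tested circles, and all 3 were higher at D8 than at D0. Of these 3, 1 circle, of Me1, was listed at 0 in all D0 and D4 libraries. It passed the filter only through D8 and could only count as higher. The Acaca circle of exons 2 to 3, from acetyl-CoA carboxylase, had 23 and 4 reads at D0, 27 and 27 at D4 and 66 and 38 at D8 (edgeR, adjusted p = 0.491). The Elovl5 circle of exons 2 to 3, from a fatty acid elongase, had 0 and 7 reads at D0, 6 and 17 at D4 and 0 and 16 at D8, so its replicates differed more than its stages. Its log2 fold change of D8 against D0 was 0.61 ± 1.77 (SE), and it changed sign to -0.31 without D0 replicate 1 and to -5.02 without D8 replicate 2, so the count of 3 rests on these libraries.

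The list of amino acid transport and glutathione had 15 circles of 9 genes, with 0 of 8 tested called by edgeR or DESeq2, none of them at an unadjusted p under 0.05 in edgeR, and 2 of 8 higher at D8. Its most abundant circles were of Slc38a10, a member of a family of amino acid transporters. The Slc38a10 circle of exons 7 to 10 had 33 and 25 reads at D0, 42 and 15 at D4 and 38 and 35 at D8, and that of exons 7 to 8 had 11 and 23, 27 and 29, and 30 and 49 reads. Their log2 fold changes of D8 against D0 were -0.19 ± 0.54 and 0.68 ± 0.49 (SE).

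The list of selenium and sulfur handling had 9 circles of 6 genes, of which edgeR and DESeq2 each called 0 of 3 tested, and 1 of the 3 was higher at D8 than at D0. The circle of Eefsec exons 3 to 4, from the elongation factor that delivers selenocysteine, had 27 and 56 reads at D0, 109 and 111 at D4 and 50 and 32 at D8 (edgeR, adjusted p = 0.132). The Cth circle of exons 2 to 4, from cystathionine gamma-lyase, had 0 and 10 reads at D0, 16 and 28 at D4 and 16 and 36 at D8 (edgeR, adjusted p = 0.498).

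**Figure D5:**
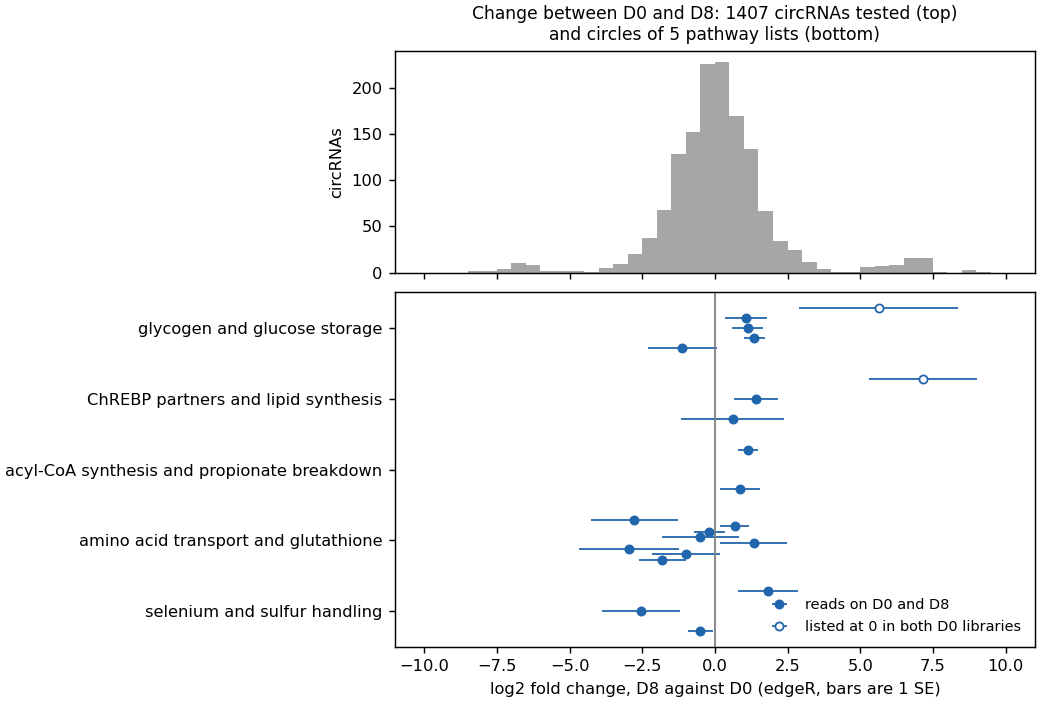
Log2 fold change of D8 against D0 from the edgeR fit. The upper panel counts all 1407 circRNAs tested, and the lower panel shows the 21 tested circles of the 5 pathway lists with bars of 1 SE, open where both D0 libraries stood at 0. Of the 21, 12 lie above 0: 4 of 5 in the glycogen list, 3 of 3 in the lipid list, 2 of 2 in the acyl-CoA list, 2 of 8 in the amino acid list and 1 of 3 in the selenium and sulfur list. The open symbols, 1 in the glycogen list and 1 in the lipid list, could only lie above 0.

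The circRNAs whose pattern over the 6 libraries was most like that of a member were found among the 1398 other circRNAs that passed the filter, by Pearson's r on log2(circCPM + 10), as a description of 6 points in 3 stages. Nearest to the Acss3 circle of exons 3 to 5 were circles of Adam23 (exons 10 to 12, r = 0.998) and Micall1 (exons 2 to 3, r = 0.997), both at 0 at D0, and Spearman's rho with Adam23 was 0.824. Here 38 circRNAs had r above 0.95. Nearest to the Mlxipl circle of exons 3 to 7 were Ralgapa2 exons 20 to 24 (r = 0.995) and Srgap1 exons 2 to 3 (r = 0.986). With this Mlxipl circle, 17 circRNAs had r above 0.95. Nearest to the Gbe1 circle were Epb4.1l5 exons 17 to 20 (r = 0.966, Spearman's rho 0.829) and Atxn1 exons 2 to 4 (r = 0.964), and 4 circRNAs had r above 0.95.

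The Selenbp1 circle was most like the single-exon circle of Fkbp5 exon 2 (r = 0.987), which had 0 and 3 reads at D0, 30 and 21 at D4 and 93 and 88 at D8. Next was Supt3h exons 7 to 11 (r = 0.977), and 10 circRNAs had r above 0.95. The Slc1a5 circle was nearest to the same Srgap1 circle (r = 0.986) and to Snx13 exons 2 to 3 (r = 0.975). With the Slc1a5 circle, 5 circRNAs had r above 0.95. The Srgap1 circle had 59 and 65 reads at D0, 149 and 154 at D4 and 203 and 288 at D8. For the Slc7a11 circle, the circle of Thap4 exons 3 to 5 had r = 0.974, and 7 circRNAs had r above 0.95.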

How the data were processed

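The authors trimmed reads with fastp 0.20.1, aligned them to mm9 with BWA-MEM 0.7.17, identified circRNAs with CIRI2 and deposited the raw count of back-splice reads per circRNA and library, without normalization. Each of the 3662 circRNAs reached 2 reads in the 2 libraries of at least 1 stage. Stages were taken from the sample titles. The members and gene lists were chosen with earlier results of these data known.

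Counts were tested with edgeR 4.0.16 in R 4.3.3 (quasi-likelihood F-test with the 2 stage coefficients tested jointly, TMM, filterByExpr with a minimum count of 10 and a minimum total of 15, Benjamini-Hochberg adjustment over 1407 circRNAs). Stage pairs were contrasts of the same fit. The SE of a log2 fold change was derived from its test, as its absolute size divided by the square root of the F statistic. DESeq2 1.42.0 and the other alternatives are given below, and the fits were tested on simulated data. circCPM used the column totals as library sizes. Ends were placed on GENCODE exons of mm9 with pysam 0.24.0 in Python 3.11.15, and where several transcripts fitted, 1 was used. Named circles are all members, the other circles of their genes, in each pathway list those past the threshold and the 2 with the highest mean circCPM, and the 2 circRNAs most like the leading member of each gene. Amino acid sequences, mRNA and qPCR values were not used here. A circRNA that the rule on likeness names is not reported here.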

Additional observations from a re-analysis of the deposited data

How the results depend on the processing

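With 2 libraries a stage and 30110 to 50672 reads a library, the number of calls depended strongly on the setting. The main fit called 16 of 1407 tested circRNAs across the stages, with 5 of 9 members and 0 of 21 list circles. DESeq2's likelihood ratio test called 83 of 1407, with 7 of 9 members and 2 of 21 list circles. Column totals alone gave 5 of 1407, of which 1 was a member. No filter on low counts gave 396 of 3662, with 7 of 10 members and 3 of 50 list circles (Phkb exons 3 to 8, Hibadh exons 2 to 7 and Agpat6 exon 2). A mean of 20 counts or more gave 71 of 401, with 6 of 6 members and 2 of 8 list circles. Thinning each library to 30110 reads gave 45 of 1006, with 7 of 8 members and 1 of 17 list circles (Phkb exons 3 to 8). With a library left out, 1846 to 1949 circRNAs were tested. The counts are thus not shares of the same set. Leaving out each library in turn gave 2 to 58 circRNAs, 1 to 6 members and 0 to 1 list circles. The count was 33 and 34 without D0 replicate 1 and 2, 9 and 2 without those of D4, and 48 and 58 without those of D8, with the remaining library of that stage taken to vary as the other stages do. The cause of these differences was not tested.

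Same-numbered libraries deviated together only weakly (correlations of 0.035, 0.070 and 0.047), so no pairing by number was detected. With counts this low, such values cannot decide whether same-numbered libraries share a mouse or culture. With a replicate block edgeR called 4 circRNAs, of which 1 was a member. The block cannot move the mean difference of the Acss3 share, which stays at -9.0 points by the design.

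The share of the Acss3 circle of exons 3 to 5 was 9.0 points lower at D8, with -11.74 to -6.27 when each library was left out and -4.78 among the 2 circles from exon 3 alone. Of 93 recomputed log2 fold changes of D8 against D4 of the members, 91 moved by less than 1 SE. For the named pathway circles, the log2 fold change of D8 against D0 changed sign for Elovl5 exons 2 to 3 (0.61, to -0.31 without D0 replicate 1 and -5.02 without D8 replicate 2), Slc38a10 exons 7 to 10 (-0.19, to 0.12 without D0 replicate 1) and Eefsec exons 3 to 4 (-0.51, to 0.06 without D0 replicate 2). Of 24 recomputed likeness values, 22 moved by less than 0.1, and the other 2, under Spearman's rho, were 0.824 and 0.829. RLE size factors left the calls at 16 and 5.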

Other observations

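Me1, the malic enzyme that supplies NADPH for fatty acid synthesis, had 5 circles in the list of ChREBP partners and lipid synthesis and was singled out after its values had been seen. All 5 were listed at 0 in both D0 libraries, and at D4 a single library had reads of 1 of them. On D8 the circle of exons 2 to 6 had 22 and 19 reads, and that of exons 7 to 9 had 26 and 8 reads. That of exons 2 to 6 was at least 4.47-fold higher at D8 than the D0 floor, and edgeR did not call it across the stages. It passed the filter only through D8 and was chosen on these values, so nothing is read from this fold. Exons 4 to 6 had 5 and 9 reads, exons 2 to 9 had 2 and 9 and exons 2 to 3 had 2 and 7.

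Among the adipocyte markers, also chosen here after their values had been seen, the circle of Insr exon 2 had 62 and 44 reads at D0, 102 and 77 at D4 and 198 and 175 at D8 (edgeR, adjusted p = 0.112). The Ghr circle of exons 2 to 8 had 0 and 5, 0 and 16, and 41 and 56 reads. It passed the filter only through later stages where it is high, and edgeR did not call it across the stages.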
